A study of Mus musculus with 40 samples.

Results

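Plagl1, also known as Zac1 and Lot1, encodes a zinc finger transcription factor and is an imprinted gene, expressed from the paternal copy in most tissues that express it. In imprinting, a stretch of CpG dinucleotides is methylated on the copy from one parent alone, so a tissue that holds both copies gives a methylation level near 50%. At Plagl1 this mark is set in the oocyte over the promoter and kept in somatic cells with the help of ZFP57, a zinc finger protein that binds a methylated 6-letter motif. Loss of the mark at the human gene is a cause of transient neonatal diabetes, and the product of Plagl1 is known as a regulator of other imprinted genes and of fetal growth.

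The values came from reduced representation bisulfite sequencing (RRBS) of liver DNA of 40 male C57BL/6 mice aged 9 weeks, C57BL/6J in the methods of the study. RRBS cuts DNA with MspI at CCGG, converts unmethylated cytosines with bisulfite and reads 50 bases from each cut end, so the percent methylation of a CpG is the share of its reads that kept a C. The mice formed 4 groups of 10 by maternal and post-weaning diet, written with the diet of the dam first: LF_LF, LF_HF, HF_LF and HF_HF, where LF is a low fat and HF a high fat diet. Dams ate their diet before mating, through pregnancy and until weaning, so the maternal diet groups combine all of those periods, and the labels used here do not give the litter of a mouse. The males of each breeding cage were split between the post-weaning diets, so mice of one maternal diet can share a dam or cage, and every p for the maternal diet treats them as independent and may be too small.

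The table listed 38 CpG cytosines of 400298 in all in the Plagl1 gene (ENSMUSG00000019817.11, mm9 chr10:12810497-12851500, plus strand) and 5 kb to each side, and every listed cytosine there was taken. A window of this size holds 589 CpG dinucleotides and 36 MspI sites in the reference, and the listed CpGs lay in 2 places. The promoter stretch held 37, from 12810619 to 12810995, a span of 377 bases with a GC content of 68.3% in which 31 of 40 CpG dinucleotides had a value. Of these 37 cytosines 18 lay in the untranslated first exon and 19 in the first intron. The remaining CpG lay in a later intron at 12828235, 17240 bases beyond the last promoter CpG. The next listed CpG upstream of the window was 9759 bases before the gene start and had a mean methylation of 81.2%, and the next one downstream was 60459 bases after the gene end with 93.1%.

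Members were to be separated by a mean from 30% to 70% over the mice. All 38 met this rule, including the one in the later intron, so the promoter was set apart by position. The mean closest to the lower bound was 36.6% at 12810740 and the one closest to the upper bound was 63.9% at 12828235, and there was no member outside either bound. The median of the 37 promoter means was 46.9% and their highest was 54.7%, at 12810787. The members were thus selected on position and on this mean methylation level over the mice, and the levels are given as a description.

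The sequences below show the parts of the locus that the values turn on, all on the plus strand of mm9. The first 300 bases of intron 1 hold 19 of the promoter CpG cytosines, and the capitals mark the ZFP57 core motif TGCCGC or its reverse complement GCGGCA. The fragment between a pair of MspI sites is one read from both ends, and its capitals mark the 5 CpGs that were read on both strands. The third is the CpG in the first exon whose strands differed, in capitals, and the last is the CpG of the later intron, in capitals.
Intron 1, chr10:12810831-12811130: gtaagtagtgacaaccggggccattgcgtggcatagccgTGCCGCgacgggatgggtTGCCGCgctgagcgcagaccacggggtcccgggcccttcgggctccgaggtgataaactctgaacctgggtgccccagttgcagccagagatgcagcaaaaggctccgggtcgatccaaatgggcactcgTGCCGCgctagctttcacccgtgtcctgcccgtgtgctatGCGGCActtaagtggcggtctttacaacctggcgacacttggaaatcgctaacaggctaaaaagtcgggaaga
Fragment read from both ends, chr10:12810846-12810918: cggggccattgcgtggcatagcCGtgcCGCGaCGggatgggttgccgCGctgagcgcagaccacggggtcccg
CpG with unequal strands, chr10:12810726-12810755: gggcatctcctgggCGccgtcatggctgct
CpG of the later intron, chr10:12828220-12828249: tcaccccaaaggagcCGggagtttctcatg

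The intron 1 window held 4 matches to the motif on either strand, and none of them overlapped another. Among 32851 promoter windows of the same length from RefSeq (GRCm38.p6), 11.6% held 1 match or more. The intron window was shown with its matches known, lies inside the gene and is not comparable with those windows, and 2 further matches lay nearer the gene start, outside it. Of the listed cytosines 5 lay within a motif, at the first pair of matches, with means from 46.1% to 47.4%. A match describes these letters and is not a site of binding.

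The promoter CpGs fell on 7 read ends, that is, sets of CpGs covered by the same 50-base reads, numbered here from the gene start. Ends 1, 2, 4 and 6 were read on the plus strand and ends 3, 5 and 7 on the minus strand. Ends 2 and 3 are the opposite ends of one 95-base fragment, ends 4 and 5 of a 73-base fragment and ends 6 and 7 of a 79-base fragment. The mean methylation was 44.7% at end 1, 37.4% at end 2, 52.4% at end 3, 47.5% at end 4, 46.8% at end 5, 44.8% at end 6 and 49.9% at end 7. Every end thus lay between 37.4% and 52.4%, with end 2 lowest and end 3, the other end of its own fragment, highest. Within an end the CpG means were close, from 36.6% to 39.9% over the 6 CpGs of end 2 and from 51.1% to 54.7% over the 7 CpGs of end 3.

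**Figure D1:**
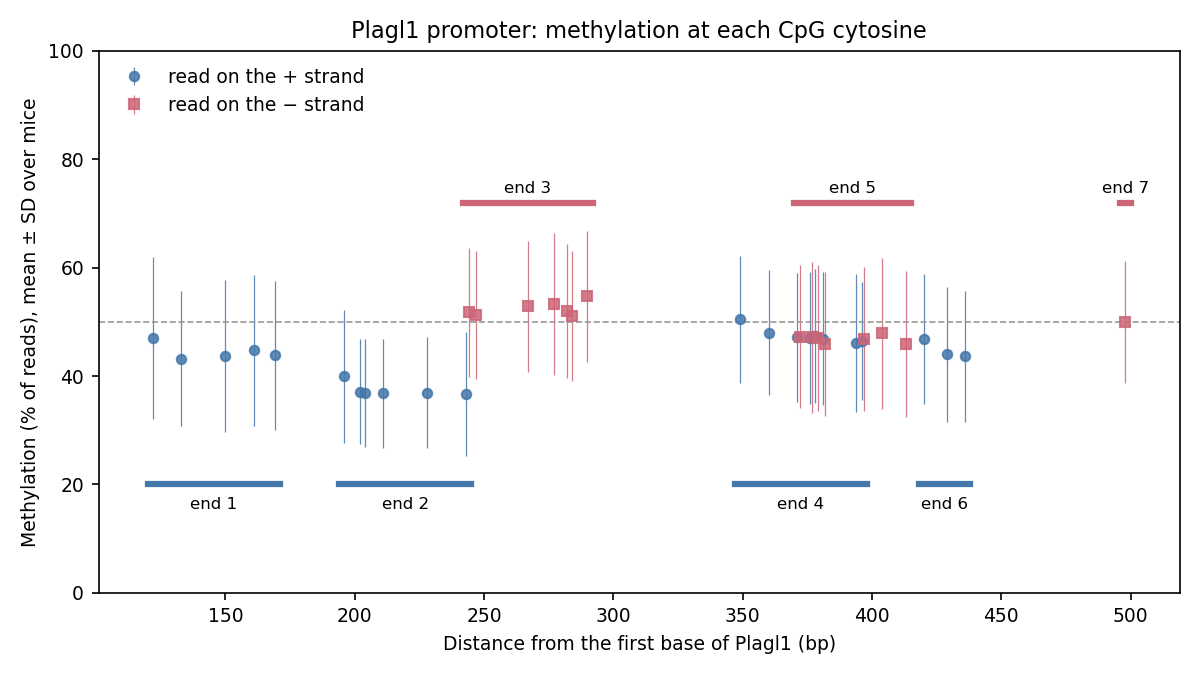
Mean methylation of the 37 promoter CpG cytosines over mice against distance from the first base of Plagl1 in bp, with bars of 1 SD between mice within diet groups; colour and shape give the strand read, and horizontal bars the 7 read ends. Most means lie a little under the dashed line at 50%, and the step is between end 2 at 37.4% and end 3 at 52.4%.

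Summed over the listed CpGs, the totals were 2969907 to 23345592 per mouse, where a read counts once at each CpG that it covers. A promoter value rested on 10 to 78 reads, since values under 10 reads were not given. Of 1480 pairs of promoter CpG and mouse, 145 had no value, and 27 mice had a value at every promoter CpG. Values in at least 36 mice were required for the tests of single CpGs and clusters and for the promoter mean, which kept 28 of the promoter CpGs and the CpG of the later intron. The tests of read ends used every mouse with a value. The 9 that were left out were the 7 CpGs of end 5, with a value in 33 mice, and 12810630 and 12810893, with 35.

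Single CpGs varied widely between mice, and their variance was set beside the one their reads alone would give. Within diet groups the SD between mice was lowest at 12810699, at 9.66 percentage points, and highest at 12810619, at 14.9. At 12810619, the first CpG of end 1, values ran from 5.88% to 81.8% with a median of 46.4%. At 12810699 they ran from 16.0% to 70.6% with a median of 35.9%. The variance within groups divided by the binomial variance of the reads was 0.835 to 1.62 over the 37 CpGs, with a median of 1.16. Over 14883 other CpGs of the table with a mean from 30% to 70% and a like median coverage of 18.5 to 25 reads, the median ratio was 1.32. The 28 analysed promoter CpGs stood from percentile 4.03 to 79.3 of those, with the median of the 28, 1.15, at percentile 29.2. Of the 28, 5 were above the median of the others. The percentiles are those of single CpGs, and CpGs of one end share reads, so how unusual the 28 are as a set was not tested.

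CpGs on one read end gave nearly the same level in a mouse, and correlations between ends were lower. Over 98 pairs of CpGs on the same end, Pearson's r across mice, after subtracting the diet group means, had a median of 0.936 and a lowest value of 0.822. These pairs share their reads. Within a mouse, the CpGs of one end differed by a median SD of 2.81 points over 215 pairs of end and mouse, where independent reads would give 10.9. Over the pairs of CpGs on different ends the median r was 0.0157, and 53.0% of the pairs were above 0. A correlation across CpGs describes these libraries, since the CpGs are not independent.

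**Figure D2:**
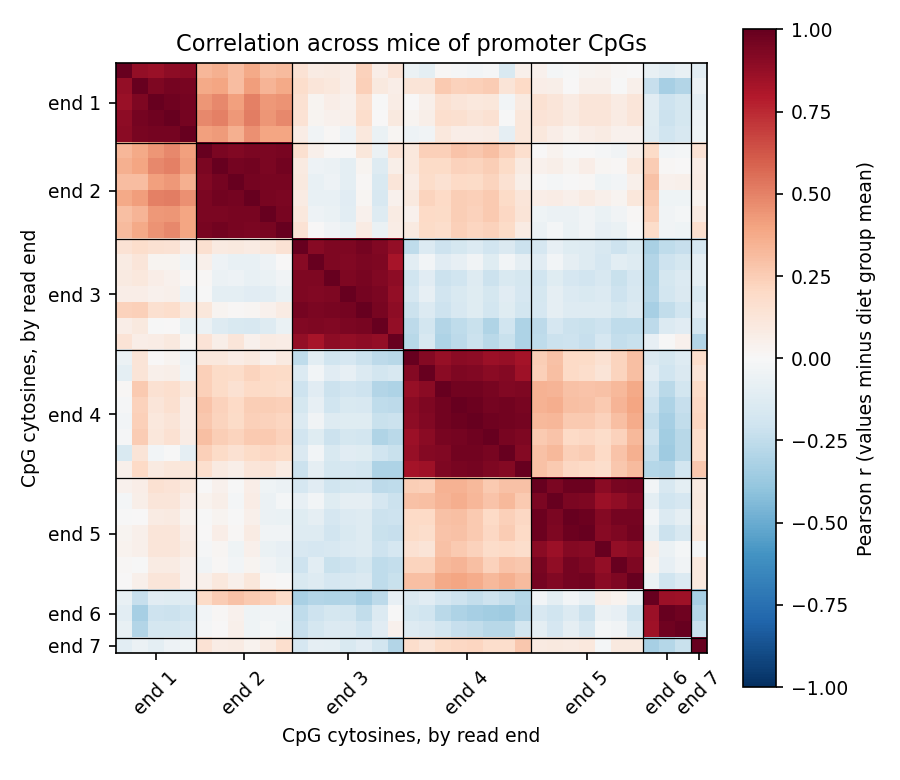
Pearson's r across mice between the 37 promoter CpG cytosines, on values minus the diet group mean, ordered by read end on both axes, with colour from -1 (blue) to 1 (red). The dark squares on the diagonal are the read ends, with a median r of 0.936 inside them and 0.0157 outside.

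Between the means of 2 ends, which share no reads, 21 pairs were compared across 31 to 37 mice each. The centred r ran from -0.293 to 0.442 with a median of 0.00295, and 0 of 21 pairs reached an adjusted permutation p of 0.05 by Benjamini-Hochberg, with 1 at an unadjusted p under 0.05. The highest was between ends 1 and 2, neighbouring fragments on the plus strand, with r = 0.442 and Spearman's rho = 0.463 over 34 mice (permutation p = 0.00880 and 0.00607, adjusted p = 0.185 and 0.127). Without the 2 mice farthest from the median of end 1, that r was 0.305. The raw r and rho of the same pair were 0.470 and 0.503 (permutation p = 0.00581 and 0.00263, adjusted p = 0.122 and 0.0552), and the raw r was 0.297 without those 2 mice. Ends 4 and 5, which share 5 CpG dinucleotides on opposite strands, had a centred r of 0.297 and rho of 0.254 (permutation p = 0.103 and 0.166, adjusted p = 0.614 and 0.652, 31 mice), and r was 0.184 without the 2 mice farthest from the median of end 4.

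The mean of the 28 promoter CpGs was then taken per mouse. One LF_HF mouse, replicate 10, had 11 of the 28 CpGs and was left out, as a mouse needed 50% of them. Over the 39 others the mean was 46.3% ± 5.76 (SD), the lowest was 32.9% in LF_LF replicate 8 and the highest 63.1% in HF_LF replicate 4. The SD within groups was 5.55 points. Reads alone would give 2.29 points if each CpG were read independently and 5.51 if the CpGs of an end always agreed within a read. Both cover counting error only, with reads taken as separate molecules, and the share of the spread that comes from differences between mice was not tested.

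The mice with the highest and the lowest mean differed in how many read ends were far from the rest. Their coverage was low, with a median of 14 reads per promoter CpG in HF_LF replicate 4 and 18 in LF_LF replicate 8. How much of their values counting error gives was not tested. HF_LF replicate 4 was at 60.2% at end 1, 69.6% at end 2, 63.5% at end 3, 58.8% at end 4, 57.1% at end 5, 66.7% at end 6 and 40% at end 7. LF_LF replicate 8 was at 5.88% at end 1 and 18.1% at end 2 but at 53.7% at end 3 and 55.4% at end 6, with 29.2% at end 4, 46.0% at end 5 and 38.1% at end 7. The high mouse was thus above 50% at all ends but end 7, and the low mouse was far below the mean at ends 1, 2 and 4 and above it at ends 3 and 6.

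No difference of the promoter between diet groups passed a test adjusted over the table. In LF_LF the promoter mean ran from 32.9% to 58.4% with a median of 43.5% (mean 44.2% ± 6.85, SD, n = 10). In LF_HF it ran from 38.9% to 50.2% with a median of 44.9% (44.5% ± 3.91, n = 9). In HF_LF it ran from 39.6% to 63.1% with a median of 51.2% (49.5% ± 6.69, n = 10). In HF_HF it ran from 39.2% to 51.1% with a median of 47.9% (47.0% ± 3.82, n = 10). The ranges of all 4 groups overlapped. The SDs of the groups fed HF after weaning were below those of the groups fed LF, a difference that was not tested. The LF_HF mouse left out was at 32.4% over its 11 CpGs, below the other mice of its group. The order of the SDs changed with the read end. At end 2 it was the same, with 4.87 in LF_HF and 10.2 in HF_HF against 11.2 in LF_LF and 13.4 in HF_LF. At end 4 it was reversed, with 12.8 and 13.2 against 11.9 and 8.66.

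**Figure D3:**
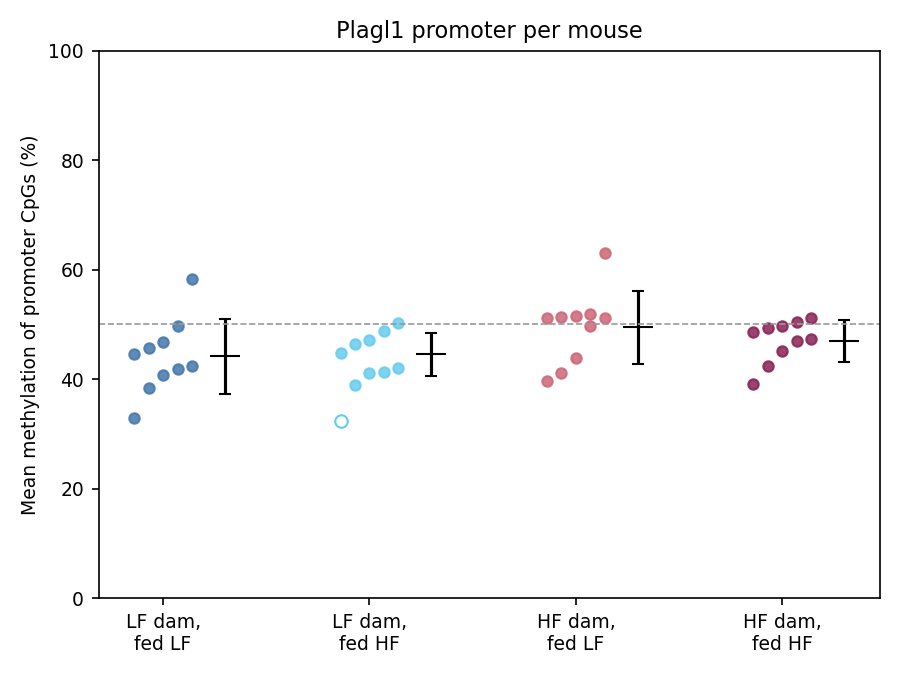
Mean methylation in % of the 28 promoter CpGs in each mouse by diet group, with the group mean ± 1 SD in black to the right of the points. The open circle is the LF_HF mouse with 11 of 28 CpGs, left out of the mean; group means run from 44.2% in LF_LF to 49.5% in HF_LF and all ranges overlap.

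For the maternal diet, promoter methylation was 5.31 points higher with HF than with LF dams when the animals were fed LF after weaning (95% interval -1.05 to 11.7, permutation p = 0.0968). That value was 1.88 points with at least 20 reads per value (permutation p = 0.642), and 6.89 without LF_LF replicate 1 (permutation p = 0.0195) and 6.41 without HF_LF replicate 9 (permutation p = 0.0459). When fed HF after weaning it was 2.50 points higher (95% interval -1.24 to 6.25, exact permutation p = 0.174). Over all mice, with the post-weaning diet in the model, it was 3.95 points higher (95% interval 0.356 to 7.53, permutation p = 0.0318, 20 against 19 mice). As 1 of 16555 clusters of at least 5 CpGs across the table, the promoter ranked 533 by this comparison with an FDR of 0.963, and 0 clusters passed an FDR of 5% (0%), with 832 at an unadjusted p under 0.05. Without HF_LF replicate 4 the difference was 3.15 points (permutation p = 0.0607), and without LF_LF replicate 8 it was 3.28 (permutation p = 0.0592). It was 1.72 points with at least 20 reads per value (permutation p = 0.482), 3.16 over CpGs with a mean from 40% to 60% (permutation p = 0.0973) and 3.53 over all 37 listed CpGs (permutation p = 0.0548), the last chosen after seeing the data. The mean reads per promoter CpG were 24.5 for HF and 21.1 for LF fed dams. Across the 39 mice, mean reads and promoter mean had a Pearson's r of -0.116 and a Spearman's rho of -0.110 (permutation p = 0.473 and 0.503), and r was -0.192 without the 2 mice farthest from the median of reads. The part of coverage in the difference was not tested.

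For the post-weaning diet, the difference was 0.372 points between LF_HF and LF_LF (95% interval -5.11 to 5.86, exact permutation p = 0.891) and -2.44 points between HF_HF and HF_LF (95% interval -7.56 to 2.68, permutation p = 0.339). Over all mice it was -1.07 points (95% interval -4.66 to 2.52, permutation p = 0.550). The direction was not stable, since the value with LF fed dams was below 0 in 5 of 11 alternatives, down to -1.56, and in 5 of 19 cases with 1 mouse left out, and that over all mice ran from -3.13 to 0.581 under the alternatives. The interaction of both diets was -2.81 points (95% interval -10.0 to 4.42, permutation p = 0.438). The cluster FDR of the promoter was at least 0.938 in all 7 comparisons. Across all clusters 0% passed an FDR of 5% in each of them but the post-weaning diet over all mice, where 1 cluster other than Plagl1 did (0.00604%).

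At single CpGs, 0 of 28 promoter CpGs passed an FDR of 5% in any of the 7 comparisons by the pair-wise tests and the linear models with Benjamini-Hochberg adjustment, and the smallest FDR was 0.808. The count was also 0 by limma and by a quasi-binomial model on the reads in all 7, and by an exact Wilcoxon test in the pair-wise comparisons. Over the whole table the share that passed was 0% for the maternal diet in either post-weaning group and over all mice, 0.000840% for the post-weaning diet in animals of LF fed dams, 0.00124% in animals of HF fed dams, 0.00236% over all mice and 0% for the interaction. At an unadjusted p under 0.05 the promoter CpGs numbered 0 for the maternal diet in animals fed HF, against 3.72% of all CpGs, and 2 in animals fed LF, against 3.99%. They numbered 0 for the post-weaning diet in animals of LF fed dams (4.03% of all CpGs), of HF fed dams (4.06%) and over all mice (4.34%). They numbered 4 for the maternal diet over all mice (3.96% of all CpGs) and 4 for the interaction (4.18%). Since CpGs of one end share their reads, the 4 of the maternal diet, all on end 2, and the 4 of the interaction, all on end 4, are each nearly a single measurement. Over all 38 listed CpGs, with no minimum number of mice, the counts for the post-weaning diet were 3 with LF fed dams (3.88% of all CpGs in that setting), 3 with HF fed dams (3.97%) and 7 over all mice (4.20%). All of these lay among the 9 CpGs left out for coverage, since the 28 and the CpG of the later intron gave 0. Of the 9, 7 are the CpGs of end 5 and share their reads, so these counts are not of separate measurements. Single mice moved the counts of the analysed CpGs, taken with the CpG of the later intron. For the maternal diet in animals fed HF there were 6 without HF_HF replicate 1, and in animals fed LF 7 without HF_LF replicate 1 and 0 without LF_LF replicate 8, among others. For the post-weaning diet with HF fed dams there were 7 without HF_HF replicate 10. For the maternal diet over all mice there were 4 to 9 without each mouse, with 9 without LF_LF replicate 1 and 7 without LF_LF replicate 3, and for the interaction 1 to 7, with 1 without LF_LF replicate 8. The share of all CpGs was 3.65% to 4.37% throughout these. Under the other alternatives the count for the interaction was 0 to 4 and 0 by the quasi-binomial model, that for the post-weaning diet was 0 to 5 with HF fed dams and 0 to 3 over all mice, the highest with the strands of a CpG summed, and that for the maternal diet was 0 to 3 in animals fed HF, 0 to 4 in animals fed LF and 4 to 6 over all mice, against 3.35% to 6.47% of all CpGs.

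The CpG with the smallest p lay on end 4 in 3 of the 4 pair-wise comparisons and on end 1 in the other. For the maternal diet in animals fed HF, 12810666 on end 1 had the smallest p and the largest positive difference of the 28, 12.7 points (FDR 0.822). The lowest of the 28 was -10.9 points, at 12810846 on end 4. In animals fed LF, 12810878 on end 4 had the smallest p, with 10.6 points (FDR 0.818), the largest positive difference was 12.5 points at 12810708 on end 2, and the lowest -1.84 at 12810926 on end 6. For the post-weaning diet in animals of LF fed dams, 12810846 had the smallest p and the largest positive difference of the 28, 10.8 points (FDR 0.808). The lowest of the 28 was -9.12, at 12810744 on end 3. In animals of HF fed dams, 12810891 on end 4 had the smallest p and the lowest difference of the 28, -12.1 points (FDR 0.820). The highest of the 28 was 8.79, at 12810666. Comparisons that share a group are not independent, and 12810846 and 12810666 are each read from groups that enter more than one of these.

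Seen by read end, the difference with the smallest p was at end 5, read on the minus strand in intron 1 and left out of the promoter mean for its coverage. There the group means were 52.3% ± 8.90 in LF_LF (n = 7), 38.6% ± 14.9 in LF_HF (n = 9), 54.5% ± 14.1 in HF_LF (n = 10) and 41.0% ± 12.6 in HF_HF (n = 7). The difference by post-weaning diet was -13.6 points in animals of LF fed dams (exact permutation p = 0.0524) and -13.5 points in animals of HF fed dams (exact permutation p = 0.0568). Over all mice the difference was -13.5 points (95% interval -22.8 to -4.25, permutation p = 0.00548), and 0.269 when adjusted over the 49 differences computed for 7 ends and 7 comparisons. With at least 15 reads at every CpG of the end, an alternative chosen after seeing the data, it was -12.3 points (permutation p = 0.0619). End 4, which reads CpGs of the same fragment on the plus strand, had means of 43.6% in LF_LF, 51.2% in LF_HF, 51.9% in HF_LF and 43.3% in HF_HF. The groups fed HF were not both lower there, and the ranges overlapped at both ends.

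Of the 49 differences, 3 had an unadjusted permutation p under 0.05 and 0 an adjusted one. The others were the maternal diet over all mice at end 2, with 8.22 points (95% interval 1.21 to 15.2, permutation p = 0.0222, adjusted 0.540), and the interaction at end 4, with -16.2 points (95% interval -32.1 to -0.261, permutation p = 0.0465, adjusted 0.540). With at least 15 reads, again chosen afterwards, these were 7.23 points (permutation p = 0.0834) and -5.53 points (permutation p = 0.555). At end 2 the group means were 32.8% ± 11.2 in LF_LF (n = 8), 33.3% ± 4.87 in LF_HF (n = 9), 44.0% ± 13.4 in HF_LF (n = 9) and 38.8% ± 10.2 in HF_HF (n = 10).

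**Figure D4:**
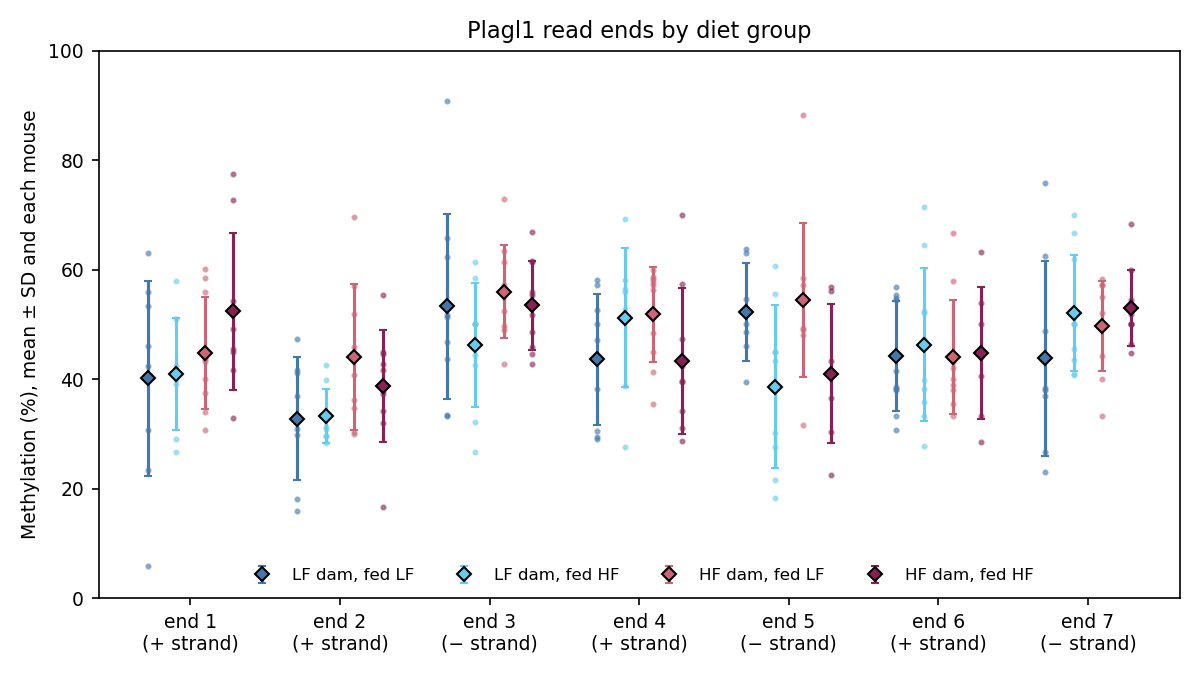
Methylation in % of each of the 7 read ends by diet group, with the mean ± 1 SD as diamonds and bars and each mouse as a small point. The group order changes from end to end; at end 5 the groups fed HF after weaning, at 38.6% and 41.0%, lie below those fed LF, at 52.3% and 54.5%.

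The strands of one CpG dinucleotide in the first exon gave different levels. The cytosine on the plus strand at 12810740 belongs to end 2 and its partner on the minus strand at 12810741 to end 3, with a median of 24 and 25 reads. In the 35 mice with both, the plus strand was at 36.8% ± 11.9 and the minus strand at 51.7% ± 9.23. The difference, plus minus minus, was -14.9 ± 13.6 points, with a range from -50.5 to 9.05, and the plus strand was lower in 31 of 35 mice (permutation of signs, p = 1e-05, the smallest that 100000 draws can give). This pair was tested after its values had been seen. Summed over those mice the strands held 36.5% methylated reads of 872 on the plus strand and 51.2% of 899 on the minus strand (95% Wilson intervals 33.3% to 39.7% and 47.9% to 54.4%, counting error only).

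The difference was in the same direction in the 4 groups, at -19.6 ± 18.3 points in LF_LF (n = 8), -14.9 ± 10.8 in LF_HF (n = 8), -11.2 ± 13.8 in HF_LF (n = 9) and -14.5 ± 11.9 in HF_HF (n = 10). Over the whole ends it was -14.9 ± 13.5 points in 35 mice. The 5 CpGs read on both strands by ends 4 and 5 had differences from -0.429 to 0.911 points over 30 or 31 mice, with permutation p from 0.787 to 0.986. Averaged over whole ends, end 4 minus end 5 was -12.2 points in LF_LF (n = 6), 13.4 in LF_HF (n = 8), -2.64 in HF_LF (n = 10) and 2.37 in HF_HF (n = 7), differences between groups that were not tested. Over 1258 other dinucleotides of the table with a mean from 30% to 70% and a median of 15 to 40 reads on each strand, the median absolute difference was 2.54 points and the 90th percentile 6.27, and 14.9 stood at percentile 99.6. The strands are read from opposite ends of the fragment, so strand and read end cannot be told apart here.

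**Figure D5:**
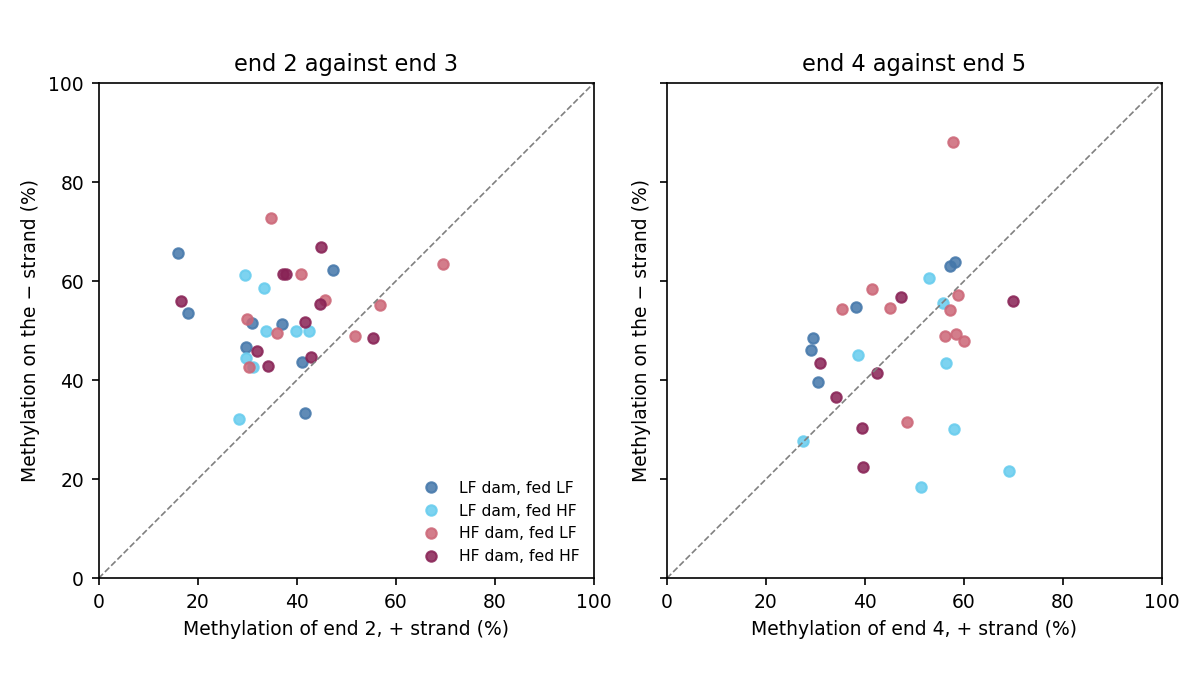
Methylation in % of the 2 ends of a fragment in each mouse, plus strand on the horizontal and minus strand on the vertical axis, coloured by diet group, with the dashed line of equal levels. Most mice lie above the line for ends 2 and 3, with a mean difference of -14.9 points, and on both sides of it for ends 4 and 5, with 0.789.

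The first CpG of a read, the one inside the MspI site, was higher than the others of its read at each of the 5 ends where both were listed. The difference was 2.89 ± 6.41 points at end 1, 3.05 ± 3.76 at end 2, 2.73 ± 5.36 at end 3, 3.35 ± 5.22 at end 4 and 3.02 ± 6.43 at end 6 (SD over 36 to 39 mice). It was positive in 26 of 36 mice at end 2 and negative in 5. Over 3186 other read ends of the table with a mean from 30% to 70%, the median was 1.27 points, with quartiles of -10.2 and 11.0, so a difference of this size was common in both directions elsewhere.

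The CpG of the later intron had a higher mean than any promoter CpG, and the ranges of the 4 groups overlapped. It was at 63.0% ± 12.4 in LF_LF (n = 9, from 33.3% to 75%), 66.6% ± 13.8 in LF_HF (n = 9, from 46.8% to 85.7%), 61.1% ± 10.1 in HF_LF (n = 10, from 38.9% to 73.2%) and 65.2% ± 14.0 in HF_HF (n = 9, from 41.2% to 86.7%). The FDR was at least 0.857 in all 7 comparisons. Its variance was 1.5 times that of its reads. Across 36 mice its Pearson's r with the promoter mean was 0.0200 (permutation p = 0.907), Spearman's rho was -0.0953 (permutation p = 0.578), and r was -0.00612 without the 2 mice farthest from the median of the intron CpG.

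The Plagl1 promoter, with 28 analysed CpGs with a mean from 30% to 70%, was set beside 27 other imprinted genes of the mouse. Of the 27, 20 had analysed CpGs within 5 kb of the gene start and 8 had at least 5 with a mean from 30% to 70%, at most 22 in Gnas, where Peg10 and Sgce share theirs. These counts depend on which CpGs were covered and do not rank the genes. The mean level of such CpGs ran from 43.1% to 50.2% over the 8, with 46.0% at the Plagl1 promoter. All of these CpGs were picked by the same range of means, so their levels are bounded by it and their likeness is not a result. The median SD between mice ran from 11.3 to 14.2 points, with 12.1 at Plagl1, below 6 of the 8. Of the 204 analysed CpGs of the list, those of Peg10 and Sgce counted under both, 0 passed an FDR of 5% in the 7 comparisons.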

How the data were processed

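Liver DNA of 40 mice was assayed by RRBS. The authors digested it with MspI, selected fragment sizes, treated them with bisulfite and sequenced 50-base single-end reads. The submitters' processing notes name Bismark and the build mm9. Per CpG cytosine and mouse, the authors deposited the count of methylated reads and the total count, neither of them normalized, and the methylated fraction. The total and the fraction are missing under 10 reads, and the deposited fraction equalled the count ratio to within 5.6e-16. There were 0 columns of no mapped mouse.

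Percent methylation was computed from the counts, and diets were taken from the labels. CpGs with a value in at least 36 of 40 mice were analysed, 262317 of 400298, and those without variance between the mice compared gave no p, which left 238168 to 242393 in the pair-wise comparisons and 254765 over all mice. Following the methods of the study, pairs of groups were compared at each CpG by Student's test on percent methylation with Benjamini-Hochberg adjustment over all CpGs tested, and an FDR under 5% was called. Linear models over all mice gave the maternal term, the post-weaning term and the interaction. Clusters were runs of at least 5 tested CpGs with gaps of at most 200 bases, and a mouse needed values at 50% of them. Promoter and read end differences were tested two-sided by permutation (100000 draws, exact where a pair-wise comparison had a group of under 10), with 95% intervals from the linear model. P-values set a difference against the spread between these mice, which includes the counting error of their reads. Read ends were assigned from MspI sites in mm9. Scripts were tested on simulated data.

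The members and the gene list were chosen with earlier results of these data known. CpGs were named by a rule: the highest and lowest mean and SD in the promoter, the means nearest 30% and 70%, and in each pair-wise comparison the smallest p and the largest and lowest difference among the analysed promoter CpGs. The mice with the highest and lowest promoter mean were named too. The strand, first CpG and single end results were chosen after their values were seen. Tools were Python 3.11.15 with numpy 2.4.6, pandas 2.3.3, scipy 1.17.1, pysam 0.24.0 and matplotlib 3.10.9, and R 4.3.3 with limma 3.58.1. Alternatives covered the test, the coverage minimum, the CpG set, covariates, the promoter definition and leaving out each mouse. Other assays of the study were not used here. One of them sequenced bisulfite PCR products of selected loci in the same 40 livers, with a Plagl1 amplicon among its primers. By those primers the amplicon spans 250 bases with 17 CpGs and ends 22 bases before the first member. The paper reports no significant difference at the loci of that assay after correction.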

Additional observations from a re-analysis of the deposited data

Results flagged for a closer look

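Among 40 groups of values examined (the promoter mean, 7 read ends, the CpG of the later intron and the strand difference, in 4 diet groups each), 4 held a mouse far from the others, and chance alone gives about 1 in 20 such groups. HF_LF replicate 4 had a promoter mean of 63.1%, where the next mouse of its group had 51.9%, and was above 50% at 6 of the 7 read ends. HF_LF replicate 3 was at 88.2% at end 5, on 17 reads, next to 58.5%, but at 57.7% at end 4 on the other strand of the same fragment. At the CpG of the later intron, LF_LF replicate 10 was at 33.3%, on 15 reads, next to 59.0%, and HF_LF replicate 8 at 38.9%, on 18 reads, next to 56.2%.

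The interaction of the diets had an unadjusted p under 0.05 at end 4, with -16.2 points (permutation p = 0.0465, adjusted over the 49 read end tests 0.540), and at 4 of its CpGs, with -18.4 points at 12810846, -16.7 at 12810873, -16.8 at 12810878 and -19.4 at 12810891. The interaction at end 4 was -5.53 points with at least 15 reads (permutation p = 0.555), and its p was 0.05 or more in 22 of 36 cases with 1 mouse left out. The smallest FDR of the CpGs was 0.868, the CpGs share their reads, and end 5 on the other strand of the fragment had an interaction of 0.137 points (permutation p = 0.988).

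The table also listed 513 methylated reads in 144 of the 145 pairs of promoter CpG and mouse where no total was given, with at most 8 reads in a pair. Without the total these reads give no level.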

How the results depend on the processing

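The count of Plagl1 CpGs at an FDR of 5% was 0 in all 7 comparisons under each alternative that could be run and without each mouse in turn. A minimum of 20 or 30 reads in at least 36 mice, or a value in all 40, left no Plagl1 CpG to test, and the promoter mean over CpGs with a value in all 40 mice could not be formed. Over all CpGs the count at an FDR of 5% was at most 3 in the pair-wise comparisons and 6 over all mice. It ran from 0 to 4 and from 0 to 11 under the alternatives, and from 0 to 6 and from 0 to 9 without each mouse.

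The maternal difference of the promoter over all mice, 3.95 points, no longer passed an unadjusted permutation p of 0.05 with CpG means from 40% to 60% (3.16 points), at least 20 reads (1.72) or all 37 listed CpGs (3.53), and was 3.15 to 4.70 without each mouse. It passed that unadjusted limit in the other 8 of 11 alternatives, where the highest value was 4.51, and in 37 of 39 cases with 1 mouse left out. In animals fed LF it was 1.88 (at least 20 reads) to 5.55 points under the alternatives and 3.80 to 6.89 without each mouse, and passed without LF_LF replicate 1 (6.89, permutation p = 0.0195) or HF_LF replicate 9 (6.41, permutation p = 0.0459). The post-weaning difference of 0.372 with LF fed dams was -0.0953 with means from 40% to 60%, -0.490 with reads pooled over CpGs, -1.24 with at least 20 reads, -1.56 with all listed CpGs and -0.838 with the left-out mouse kept, and -0.880 to 1.95 without each mouse. Over all mice it was 0.581 with each read end counted once and -3.13 with all listed CpGs (permutation p = 0.0872), and -1.70 to -0.277 without each mouse. The differences at single ends did not pass with at least 15 reads, at -12.3 points at end 5, 7.23 at end 2 and -5.53 for the interaction at end 4. Without each mouse they were -14.8 to -11.7, 6.68 to 9.56 and -19.5 to -13.6, and the last did not pass in 22 of 36 cases. The causes were not tested.

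The maternal difference in animals fed HF (1.52 to 3.71 points, and 1.79 to 3.38 without each mouse), the post-weaning difference with HF fed dams (-4.60 to -0.492, and -3.53 to -0.927) and the promoter interaction (-3.33 to -0.367, and -4.39 to -1.30) kept their direction and did not pass under any alternative. The SD within groups was 5.41 with pooled reads. With at least 20 reads at every CpG, the centred r of the ends ran from -0.530 to 0.477 with a median of 0.156, 14 of 21 pairs were above 0 and 0 passed, over 9 to 22 mice, which is few for such a test. The strand difference was -16.2 points with at least 20 reads, -14.7 with reads summed over mice and -15.6 to -13.8 without each mouse. Promoter values rest on 10 to 78 reads. No paired analysis was possible because the labels give no number shared between groups and no litter or cage. The alternatives of the promoter mean with all listed CpGs and with the kept mouse, and those of the strands and single ends, were chosen after seeing the data.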
